A study of Mus musculus with 6 samples.

Results

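Mitochondrial ribosomal proteins were examined in DN3 thymocytes of WT mice and of mice with a conditional deletion of Hspa9 (Hspa9 cKO). Members were the protein-coding genes whose mouse symbol begins with Mrpl or Mrps, found by their Ensembl gene ID. The rule gave 78 genes, 49 Mrpl genes of the large subunit and 29 Mrps genes of the small subunit, beside 12235 genes of any kind with a level in the tables. DN3 thymocytes are immature T cells of the thymus at the stage at which the T cell receptor beta chain is rearranged and tested. They were sorted from mice aged 5 weeks as lineage-negative cells with CD25 on their surface and without CD4, CD8 and CD44. Each group had 3 RNA sequencing libraries, and neither group received a treatment. The sources used here give neither the Cre driver nor the strain, nor do they say whether a library came from 1 mouse or from pooled mice. All p-values therefore rest on the spread among the 3 libraries of a group, which may be technical. Levels are in FPKM (fragments normalised for transcript length and for library size) and are sums over the transcript starts that the tables list under a gene.

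The mitochondrial ribosome translates the few messages encoded by mitochondrial DNA, all of them subunits of the respiratory chain or of the ATP synthase. All of its proteins are encoded in the nucleus, made in the cytosol and imported into the matrix, where they assemble on ribosomal RNA transcribed from mitochondrial DNA. Hspa9 encodes mitochondrial HSP70, also called mortalin or GRP75, the chaperone of the import motor that pulls such proteins into the matrix. Some members have a counterpart in the bacterial ribosome, and others occur only in mitochondrial ribosomes. Mrps36 bears a ribosomal name, but its product is now known as a subunit of the oxoglutarate dehydrogenase complex. The products of Mrps30 and Mrps18a sit in the large subunit in spite of their names.

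The Hspa9 gene itself was checked first. Its summed level was 105.4, 121.2 and 121.7 FPKM in WT replicates 1 to 3 and 117.2, 123.5 and 109.7 FPKM in Hspa9 cKO replicates 1 to 3, a log2 difference of 0.01 (exact two-sided permutation test, p = 0.9). Inclusion of its exons 2 to 4 was 100%, 89.9% and 86.1% in the WT libraries and 24.5%, 15.8% and 26.7% in the Hspa9 cKO libraries. The groups did not overlap (exact permutation p = 0.1, the smallest that 3 against 3 libraries can give). All 9 DN3 markers were listed, with a summed level of 602.5 to 695.2 FPKM in WT and 1076 to 1215 FPKM in Hspa9 cKO. All 6 mitosis markers fell, from summed levels of 244.1 to 265.4 FPKM to 109.7 to 113.5 FPKM. The listed erythroid markers, Alas2, Hba-a2, Hbb-bs and Hbb-bt, summed to 63.1 to 76.6 FPKM in WT and 37.6 to 46.1 FPKM in Hspa9 cKO. Cd4, Cd8a, Cd8b1, Cd44 and Kit, markers of later or earlier thymocytes, summed to 14.8 to 15.2 FPKM in WT and 9.01 to 12.5 FPKM in Hspa9 cKO, with 1 of the 3 tested called lower. Of 5 B cell markers only Cd79b was listed, and it was called higher, at 9.75 to 12.6 FPKM in WT and 15.3 to 18.3 FPKM in Hspa9 cKO. Of 5 epithelial markers only Epcam was listed, and it too was called higher, at 27.2 to 29.1 FPKM in WT and 36.7 to 43.0 FPKM in Hspa9 cKO. Of 6 myeloid markers Csf1r, Fcer1g and Lyz2 were listed, at summed levels that overlapped, 9.23 to 15.9 FPKM in WT and 14.4 to 15.7 FPKM in Hspa9 cKO, and of 5 NK and gamma-delta markers only Tyrobp, at 0.782 FPKM or less. The part of these shifts in the members' levels was not tested. In bulk samples, fewer cells of a type and less RNA per cell cannot be told apart.

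Of the 78 members, 70 were listed under their own ID and 69, 44 of the large and 25 of the small subunit, reached 1 FPKM in at least 3 libraries and were tested. Mrpl33, Mrpl41, Mrpl50, Mrpl51, Mrps6, Mrps10, Mrps24 and Mrps34 were not listed under their own ID, and the absence of a gene from these tables says nothing of its expression. Mrpl1 was listed but not tested: its start appeared in WT replicate 3 alone, at 2.56 FPKM, while its ends summed to 4.27, 4.91 and 5.06 FPKM in WT and 4.82, 4.85 and 3.66 FPKM in Hspa9 cKO. Members were expressed at moderate and rather even levels, with a median of 18.3 FPKM and mean levels over the 6 libraries of up to 65.8 FPKM, for Mrpl23. The lowest mean was 3.50 FPKM for Mrpl53, from a start that lies outside that gene, and the next lowest 4.02 FPKM for Mrpl17.

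Across the tested members, levels lay mostly below those of WT, by a small amount. The log2 difference between Hspa9 cKO and WT, on the scale of log2(FPKM + 1), was below 0 for 54 of the 69, or 78.3%, against 43.3% of the 9198 genes tested. Its median over the members was -0.17, with quartiles of -0.25 and -0.04, and that over all genes tested was 0.06. For 26 members, or 37.7%, all 3 Hspa9 cKO libraries lay below all 3 WT libraries; among all genes tested this held for 15.7%. A single member, Mrpl43, had all Hspa9 cKO libraries above all WT libraries, against 23.2% of all genes. Few single members passed the test. At an adjusted p under 0.05 (limma, Benjamini-Hochberg over all genes tested), 4 members were lower and 0 were higher, while 14 had an unadjusted p under 0.05, all of them lower. Of all 9198 genes tested, 2885 had an unadjusted p under 0.05, 1131 of them lower. The 4 are 5.80% of the tested members, and 5.61% of all genes tested were called lower, so the share of calls was near the background. Among all genes, 8.4% were called higher.

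**Figure D1:**
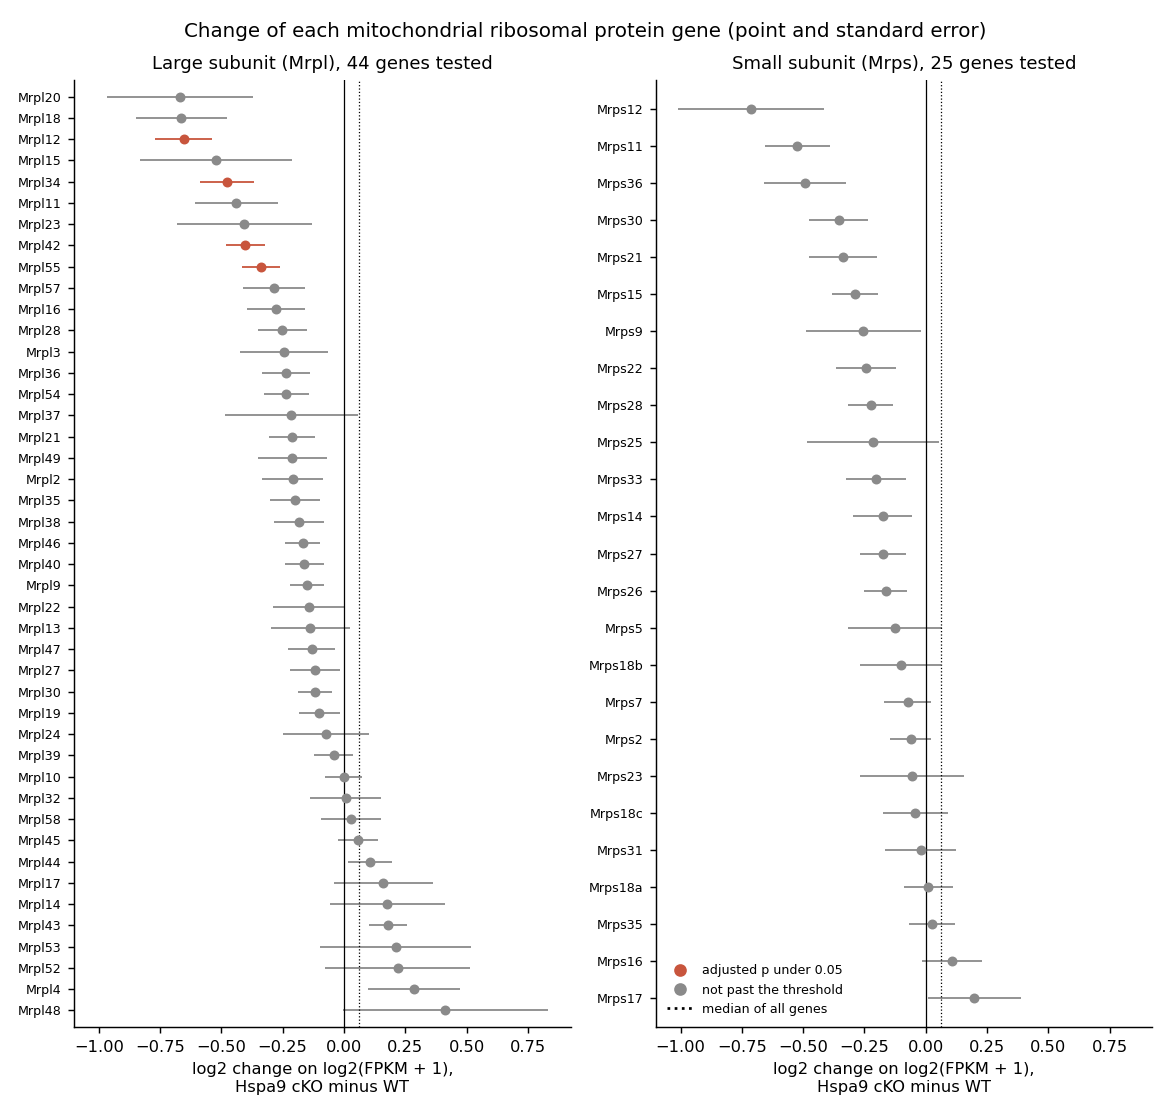
Log2 difference between Hspa9 cKO and WT on log2(FPKM + 1) for each tested member (point, with its standard error from limma), large subunit left and small subunit right, sorted from the lowest to the highest; red points have an adjusted p under 0.05 and the dotted line is the median of all genes tested, 0.06. The 4 red points, Mrpl12, Mrpl34, Mrpl42 and Mrpl55, are all in the large subunit, and 54 of the 69 points lie left of 0.

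The 4 members that fell belong to the large subunit. Mrpl12 encodes the stalk protein that contacts translation factors. Its level was 67.9, 58.1 and 77.7 FPKM in WT replicates 1 to 3 and 43.8, 42.7 and 41.0 FPKM in Hspa9 cKO replicates 1 to 3. Every Hspa9 cKO library was below every WT library, and the WT libraries were the more spread (log2 difference -0.65, SE 0.11, adjusted p = 0.0180). Mrpl42, which occurs only in mitochondrial ribosomes, was at 60.2, 54.4 and 59.8 FPKM in WT and at 44.6, 41.0 and 45.7 FPKM in Hspa9 cKO. The groups did not overlap (log2 difference -0.40, SE 0.08, adjusted p = 0.0255).

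Mrpl34, the counterpart of bacterial L34, was at 45.8, 55.2 and 60.5 FPKM in WT and at 37.8, 38.3 and 38.4 FPKM in Hspa9 cKO. The Hspa9 cKO libraries were close to each other and below all WT libraries (log2 difference -0.48, SE 0.11, adjusted p = 0.0396). Mrpl55, the mitochondrial relative of bacterial L31, had the lowest level of the 4, with 16.9, 17.01 and 15.7 FPKM in WT and 13.4, 12.6 and 12.7 FPKM in Hspa9 cKO. Its groups were also apart (log2 difference -0.34, SE 0.08, adjusted p = 0.0356). None of these calls held in every fit without 1 library. Without WT replicate 1 only Mrpl34 was called (adjusted p = 0.0267). Without WT replicate 2 Mrpl12 and Mrpl42 were called, and without WT replicate 3 Mrpl12 and Mrpl18. Without Hspa9 cKO replicate 1 only Mrps11 was called, and without Hspa9 cKO replicate 2 or 3 the count was 0. In those fits the number of genes called lower in all came to between 202 and 323, against 516 with 6 libraries, and the 4 members kept log2 differences between -0.76 and -0.32.

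**Figure D2:**
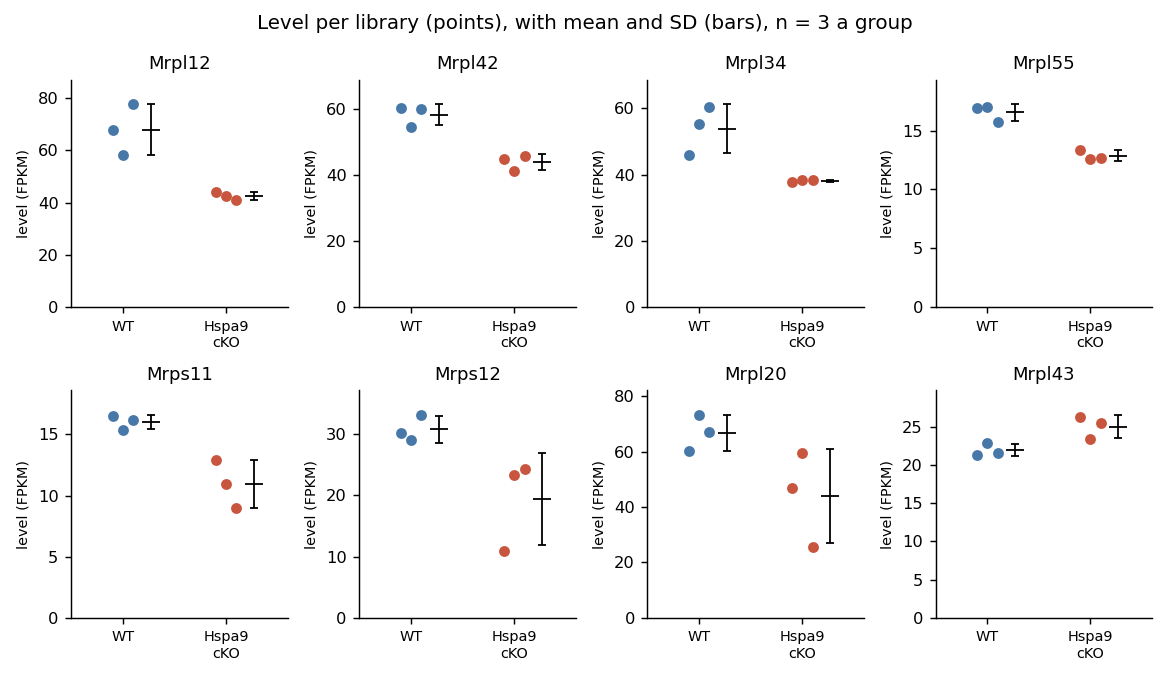
Level in FPKM of 8 members in each library (points, blue for WT and red for Hspa9 cKO), with the mean and SD of 3 libraries beside them; each axis starts at 0. For Mrpl12, Mrpl42, Mrpl34, Mrpl55, Mrps11, Mrps12 and Mrpl20 all Hspa9 cKO points lie below the WT points, with 1 low library each for Mrps12 and Mrpl20, and for Mrpl43 they lie above.

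Promoter sequences of members that the results turn on are shown here with the windows RefSeq gives for the mouse build GRCm38.p6, from 250 bases before to 50 bases after the annotated start. A window was matched by symbol for 69 of the 78 members. Members with a start event of their own and a window numbered 61, and in 48 of them the most used start lay within 50 bases of a RefSeq start. Capitals mark an exact match, on either strand, to 1 of 4 motifs: the palindromic core of the NRF1 motif (given by its name alone), CCGGAAG for ETS factors, AAGATGGCG for YY1, and CACGTG, the E-box bound by MYC and related factors. The first 4 windows are those of the members that fell, the fifth is that of the only member with all Hspa9 cKO libraries above WT, and the last is that of Mrpl36, whose start use is described further on.
Mrpl12, chr11:120484387-120484686, + strand: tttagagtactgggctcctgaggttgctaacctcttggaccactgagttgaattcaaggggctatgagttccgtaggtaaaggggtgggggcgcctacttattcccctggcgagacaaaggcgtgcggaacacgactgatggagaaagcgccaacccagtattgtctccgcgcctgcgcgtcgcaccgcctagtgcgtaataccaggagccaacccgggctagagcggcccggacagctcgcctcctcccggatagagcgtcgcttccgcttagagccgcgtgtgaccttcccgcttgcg
Mrpl34, chr8:71464676-71464975, + strand: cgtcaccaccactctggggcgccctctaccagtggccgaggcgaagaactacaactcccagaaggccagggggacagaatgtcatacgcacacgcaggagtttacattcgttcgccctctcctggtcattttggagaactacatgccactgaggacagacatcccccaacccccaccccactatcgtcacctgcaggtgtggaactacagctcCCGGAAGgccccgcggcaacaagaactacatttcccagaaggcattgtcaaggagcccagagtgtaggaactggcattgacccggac
Mrpl42, chr10:95501900-95502199, - strand: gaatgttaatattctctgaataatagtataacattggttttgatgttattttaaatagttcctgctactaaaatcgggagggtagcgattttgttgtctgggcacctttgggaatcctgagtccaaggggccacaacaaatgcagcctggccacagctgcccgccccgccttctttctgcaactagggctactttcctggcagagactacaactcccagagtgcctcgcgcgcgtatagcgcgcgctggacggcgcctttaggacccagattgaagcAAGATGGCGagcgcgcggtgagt
Mrpl55, chr11:59202236-59202535, + strand: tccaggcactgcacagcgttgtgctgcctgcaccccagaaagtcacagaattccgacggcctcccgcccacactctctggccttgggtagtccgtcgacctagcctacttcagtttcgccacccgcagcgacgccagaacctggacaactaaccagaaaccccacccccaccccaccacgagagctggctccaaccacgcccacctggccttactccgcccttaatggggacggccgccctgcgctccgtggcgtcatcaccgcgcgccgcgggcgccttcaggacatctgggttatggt
Mrpl43, chr19:45006393-45006692, - strand: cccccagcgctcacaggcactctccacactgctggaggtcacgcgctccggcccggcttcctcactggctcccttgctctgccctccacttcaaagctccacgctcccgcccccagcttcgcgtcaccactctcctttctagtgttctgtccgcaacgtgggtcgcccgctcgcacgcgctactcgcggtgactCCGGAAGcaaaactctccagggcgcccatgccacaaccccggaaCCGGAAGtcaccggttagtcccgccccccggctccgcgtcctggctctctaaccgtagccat
Mrpl36, chr13:73330759-73331058, + strand: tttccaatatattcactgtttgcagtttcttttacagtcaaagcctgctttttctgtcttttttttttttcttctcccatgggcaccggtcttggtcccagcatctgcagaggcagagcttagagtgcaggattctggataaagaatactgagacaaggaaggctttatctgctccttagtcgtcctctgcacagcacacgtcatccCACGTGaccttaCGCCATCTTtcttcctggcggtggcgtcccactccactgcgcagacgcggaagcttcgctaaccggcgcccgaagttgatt

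The window of Mrpl34 held an ETS match 37 bases before the start, that of Mrpl42 a YY1 match 27 bases after it, and that of Mrpl43 ETS matches 56 and 12 bases before it. The windows of Mrpl12 and Mrpl55 held none of the 4 motifs, which says only that these letters are not in these windows. Over all members with a window, the ETS letters were found in 26 of 69, or 37.7%, against 13.4% of protein-coding genes with a window. YY1 letters were found in 8 members, or 11.6%, against 2.25%, and NRF1 letters in 3, or 4.35%, against 1.53%. The E-box was found in 5 members, or 7.25%, against 9.18%. The 16522 protein-coding genes with a window were not limited to the genes tested here. The windows of members also had a higher GC content, with a median of 58.7% against 52.7% over all windows. A match of letters is a description and not a binding site. Of the 4 members that fell, 1 had ETS letters, 1 had YY1 letters and 2 had neither.

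The subunits were close to each other. The summed level of the 45 listed large-subunit genes was 1073, 1118 and 1209 FPKM in WT replicates 1 to 3 and 980.9, 977.1 and 930.5 FPKM in Hspa9 cKO replicates 1 to 3, so that the Hspa9 cKO mean was 85.0% of the WT mean. The 25 listed small-subunit genes summed to 567.9, 559.0 and 629.6 FPKM in WT and to 486.8, 536.2 and 501.7 FPKM in Hspa9 cKO, 86.8% of WT. In both subunits every Hspa9 cKO library was below every WT library. The ratio of large to small was 1.94 ± 0.0574 in WT and 1.897 ± 0.103 in Hspa9 cKO (SD, n = 3 each), and the groups overlapped. The total of start FPKM in a library was also lower in Hspa9 cKO; as a share of it, the members made up 0.651% ± 0.0248 in WT and 0.590% ± 0.0215 in Hspa9 cKO (SD, n = 3 each). No test was made on these sums, since the members were chosen with earlier results of these data known.

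**Figure D3:**
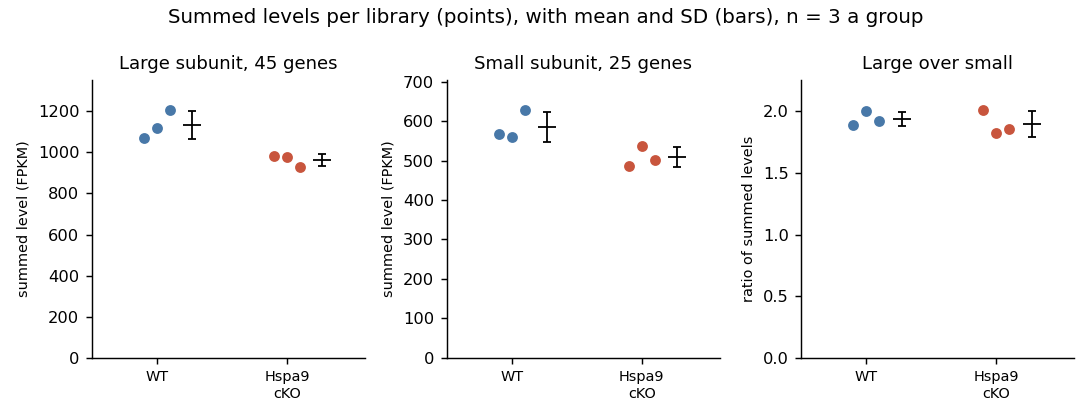
Summed level in FPKM of the 45 listed large-subunit and 25 listed small-subunit genes in each library, and the ratio of the sums (points, with mean and SD of 3 libraries; axes start at 0). Both sums are lower in all Hspa9 cKO libraries than in all WT libraries, at 85.0% and 86.8% of the WT mean, while the ratios overlap.

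Gene by gene, the median log2 difference was -0.17 in the large subunit and -0.17 in the small. Below 0 were 33 of 44 large-subunit and 21 of 25 small-subunit members. Groups did not overlap, with Hspa9 cKO lower, for 18 of 44 and for 8 of 25, against 15.7% of all genes tested. The small subunit had 0 members called and 5 of 25 with an unadjusted p under 0.05, all lower. Of all 9198 genes tested, 516 were called lower and 1131 were lower with an unadjusted p under 0.05. With Mrps30 and Mrps18a counted in the large subunit and Mrps36 left out, the medians were -0.17 and -0.17. Members with a bacterial counterpart had medians of -0.20 in the large subunit (28 tested, 3, or 10.7%, called lower, against 5.61% of all genes) and -0.18 in the small (13 tested, 0 called). Members that occur only in mitochondria had medians of -0.10 in the large subunit (16 tested, 1, or 6.25%, called lower, 9 below 0) and -0.16 in the small (11 tested, 0 called). Differences between these classes were not tested.

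Among small-subunit members the lowest log2 difference was that of Mrps12, a protein of the decoding centre. It was at 30.1, 29.0 and 33.2 FPKM in WT and at 10.8, 23.3 and 24.2 FPKM in Hspa9 cKO. Hspa9 cKO replicate 1 was far below the other two, and the gene did not pass the test (log2 difference -0.71, SE 0.30, adjusted p = 0.164; without that library -0.36). Mrps11, whose bacterial counterpart lies in the platform of the small subunit, was at 16.5, 15.4 and 16.2 FPKM in WT and at 12.9, 10.97 and 8.97 FPKM in Hspa9 cKO. Its groups were apart and its adjusted p was just above the threshold (log2 difference -0.52, SE 0.13, adjusted p = 0.0508). Rescaling by trimmed means of log ratios brought it under the threshold (adjusted p = 0.0411).

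Mrps36, the dehydrogenase subunit, was at 23.4, 17.3 and 17.3 FPKM in WT and at 11.9, 12.2 and 16.2 FPKM in Hspa9 cKO, without overlap (log2 difference -0.49, adjusted p = 0.107). It has 3 named pseudogenes, so its reads may have been divided among copies. Mrps30, a large-subunit protein by place, was at 15.1, 13.3 and 17.6 FPKM in WT and at 10.8, 12.2 and 12.1 FPKM in Hspa9 cKO (log2 difference -0.36, adjusted p = 0.102). Mrps21, the counterpart of bacterial S21, was at 57.9, 65.5 and 83.2 FPKM in WT and at 51.1, 56.4 and 53.5 FPKM in Hspa9 cKO, without overlap (adjusted p = 0.160). Mrps15, at 57.8, 59.9 and 65.4 FPKM in WT, was at 46.1, 54.7 and 48.8 FPKM in Hspa9 cKO, also without overlap (adjusted p = 0.0918). These 4 members had log2 differences between -0.49 and -0.29 and did not pass the test.

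The Mrps18 genes are 3 paralogs of which only Mrps18c is the counterpart of bacterial S18. Mrps18c was at 26.3, 21.98 and 31.01 FPKM in WT and at 24.6, 27.1 and 24.6 FPKM in Hspa9 cKO. Mrps18b was at 20.8, 21.2 and 24.8 FPKM in WT and at 16.01, 23.8 and 22.99 FPKM in Hspa9 cKO. Mrps18a was at 30.1, 32.7 and 33.9985 FPKM in WT and at 33.96, 28.9 and 35.04 FPKM in Hspa9 cKO. Their groups overlapped, with log2 differences of -0.04, -0.10 and 0.01, and on the FPKM scale, which is per length, all values of the 3 paralogs lay between 16.01 and 35.04. The highest values of the small subunit were those of Mrps17 at 0.20, Mrps16 at 0.11, Mrps35 at 0.03, Mrps18a at 0.01 and Mrps31 at -0.02, all with overlapping groups.

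In the large subunit, 2 members had lower log2 differences than Mrpl12 without passing the test. Mrpl20, whose bacterial counterpart acts early in the assembly of the large subunit, was at 60.4, 73.3 and 67.0 FPKM in WT and at 46.8, 59.5 and 25.6 FPKM in Hspa9 cKO. Its groups did not overlap, but its Hspa9 cKO libraries spread from 25.6 to 59.5 FPKM (log2 difference -0.67, SE 0.30, adjusted p = 0.185; without Hspa9 cKO replicate 3, -0.33). Mrpl18, of a protein family that binds 5S ribosomal RNA, was at 32.8, 32.99 and 52.1 FPKM in WT and at 23.6, 22.9 and 25.2 FPKM in Hspa9 cKO. The WT library that stood high, replicate 3, widened the error (log2 difference -0.66, SE 0.19, adjusted p = 0.0676), and without it the gene was called (-0.45, adjusted p = 0.0385). Mrpl15 was at 14.4, 20.9 and 9.59 FPKM in WT and at 9.26, 7.34 and 13.2 FPKM in Hspa9 cKO, with overlapping groups (log2 difference -0.52, adjusted p = 0.306).

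The member with the highest mean level, Mrpl23, whose protein lies at the exit of the peptide tunnel, varied as much within groups as between them. It was at 52.8, 79.5 and 93.0 FPKM in WT and at 76.2, 47.5 and 45.6 FPKM in Hspa9 cKO (log2 difference -0.41, SE 0.28, adjusted p = 0.364), and it has 1 named pseudogene. The other members with groups apart and Hspa9 cKO lower were Mrpl9, Mrpl21, Mrpl28, Mrpl30, Mrpl35, Mrpl36, Mrpl38, Mrpl40, Mrpl46, Mrpl47, Mrpl54 and Mrpl57 in the large subunit and Mrps26 and Mrps28 in the small. Their log2 differences lay between -0.29 for Mrpl57 and -0.12 for Mrpl30.

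Against this direction stood Mrpl43, found only in mitochondrial ribosomes, at 21.4, 22.9 and 21.6 FPKM in WT and 26.3, 23.3 and 25.5 FPKM in Hspa9 cKO. Its groups were apart by a small margin, and it did not pass the test (log2 difference 0.18, SE 0.08, adjusted p = 0.179). The other members with the highest log2 differences had overlapping groups. Mrpl4 was at 6.13, 9.11 and 6.49 FPKM in WT and at 8.05, 11.1 and 7.92 FPKM in Hspa9 cKO (log2 difference 0.29, adjusted p = 0.351). Mrpl52 was at 27.1, 29.6 and 26.2 FPKM in WT and at 53.3, 25.03 and 25.02 FPKM in Hspa9 cKO, and its log2 difference of 0.22 became -0.13 without Hspa9 cKO replicate 1. Mrpl48 had the highest log2 difference, 0.41 with an SE of 0.42, from 9.92, 5.87 and 10.8 FPKM in WT and 5.89, 15.4 and 17.5 FPKM in Hspa9 cKO; it was 0.86 without Hspa9 cKO replicate 1 and 0.15 without Hspa9 cKO replicate 3.

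Of the least expressed members, Mrpl17 was at 3.19, 5.02 and 3.07 FPKM in WT and at 4.57, 3.37 and 4.89 FPKM in Hspa9 cKO, with overlapping groups. Mrpl47, the counterpart of bacterial L29, was at 5.25, 5.79 and 6.09 FPKM in WT and at 5.19, 5.06 and 5.11 FPKM in Hspa9 cKO (log2 difference -0.13, adjusted p = 0.395). The only start listed under Mrpl53 lies outside that gene, so its values of 2.44, 2.52 and 4.44 FPKM in WT and 5.80, 3.46 and 2.37 FPKM in Hspa9 cKO may be those of another gene. They gave a log2 difference of 0.21, among the 5 highest of the large subunit, with overlapping groups (adjusted p = 0.682; 0.45 without Hspa9 cKO replicate 3 and -0.06 without Hspa9 cKO replicate 1). Its transcript ends were at 11.1, 7.37 and 7.76 FPKM in WT and at 7.91, 9.88 and 9.47 FPKM in Hspa9 cKO, with a log2 difference of 0.06.

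Read by level, the share of members with Hspa9 cKO below WT was highest among the most expressed. Of the 11 members with a mean between 40 and 100 FPKM, 9, or 81.8%, had groups apart and lower, against 32.6% of the 807 genes of that range, and their median log2 difference was -0.34 against -0.10. Of the 9 members below 10 FPKM, 2, or 22.2%, did, against 9.37% of genes, with a median of 0.01 against 0.16. Between 10 and 20 FPKM the shares were 28.6% of 28 members and 14.5% of genes, and between 20 and 40 FPKM 33.3% of 21 members and 21.4% of genes. In all genes, too, the share grew with the level. Members were also short, with a median transcript length of 1332 bases against 2859.5 bases, and shorter genes of any kind lay lower in Hspa9 cKO. Up to 1000 bases the median log2 difference was -0.24 for 20 members and -0.04 for all genes, from 1000 to 2000 bases -0.17 for 27 members and 0.01 for all genes, and above that -0.11 for 22 members and 0.09 for all genes. With the trend over length and GC content removed in each library, 52 of 69 members were below 0 and 2, Mrpl12 and Mrpl42, were called. In that fit 547 of 9194 genes were called lower.

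**Figure D4:**
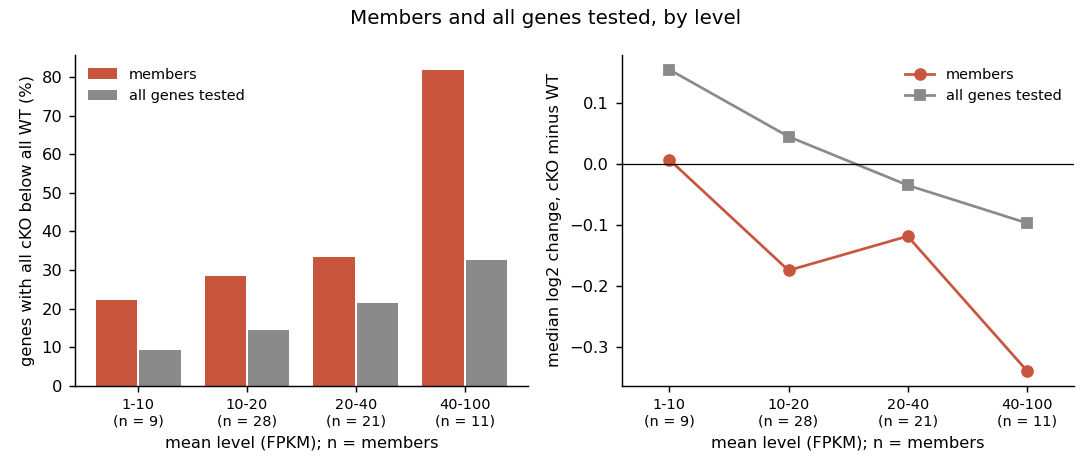
Members and all genes tested in 4 ranges of the mean level in FPKM: left, the percentage with all 3 Hspa9 cKO libraries below all 3 WT libraries (bars from 0); right, the median log2 difference. The members' share is 81.8% between 40 and 100 FPKM, against 32.6% of all genes, and their median is below that of all genes in each range.

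The use of transcript starts varied between libraries in a part of the members. Of the 78, 37 had at least 2 start events of their own. The most used start of a gene was the one with the highest mean level over the 6 libraries, so another start can lead in a single library. In 18 of the 37 the most used start held 90% or more of the level in every library. In 4 it held under 50% in at least 1 library. For Mrps5 the share ran from 52.5% to 96.0% over the 6 libraries, and for Mrpl19 from 65.8% to 100%. The ratio of the most used start to the others was fitted with limma across the 4137 genes with at least 2 own starts and a mean total of at least 5 FPKM, a test added after the data were seen. Among all genes 0.218% were called, and among the 36 members tested the count was 1, Mrpl36, the counterpart of bacterial L36.

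The most used start of Mrpl36, 21 bases before the RefSeq start, was at 46.5, 41.2 and 51.5 FPKM in WT and at 26.96, 29.1 and 30.5 FPKM in Hspa9 cKO. A start 38 bases downstream of it was at 1.28, 1.124 and 1.51 FPKM in WT and at 10.6, 10.1 and 10.2 FPKM in Hspa9 cKO, 7.92 times the WT mean. The first exon of the most used start ended at base 73331091 and that of this downstream start at base 73331093. A change of start and a change of first-exon end therefore cannot be told apart here. Another start, 2475 bases upstream of the most used one, was listed only in Hspa9 cKO, at 1.36, 0.726 and 0.757 FPKM. The most used start thus held 97.3%, 97.3% and 97.2% of the level in WT and 69.2%, 72.8% and 73.5% in Hspa9 cKO, without overlap (log2 ratio -3.08, SE 0.19, adjusted p = 0.00646). The promoter window printed above for Mrpl36 holds both close starts, downstream of an E-box that begins 43 bases before the RefSeq start and of YY1 letters on the reverse strand that begin 31 bases before it. The groups of the gene's summed level were apart by less, with 47.8, 42.3 and 53.0 FPKM in WT and 39.0, 39.9 and 41.5 FPKM in Hspa9 cKO (log2 difference -0.24, adjusted p = 0.157). The call was lost without Hspa9 cKO replicate 2 (adjusted p = 0.0640) and with a pseudocount of 0.1 (adjusted p = 0.0806), at log2 ratios of -3.11 and -3.70.

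**Figure D5:**
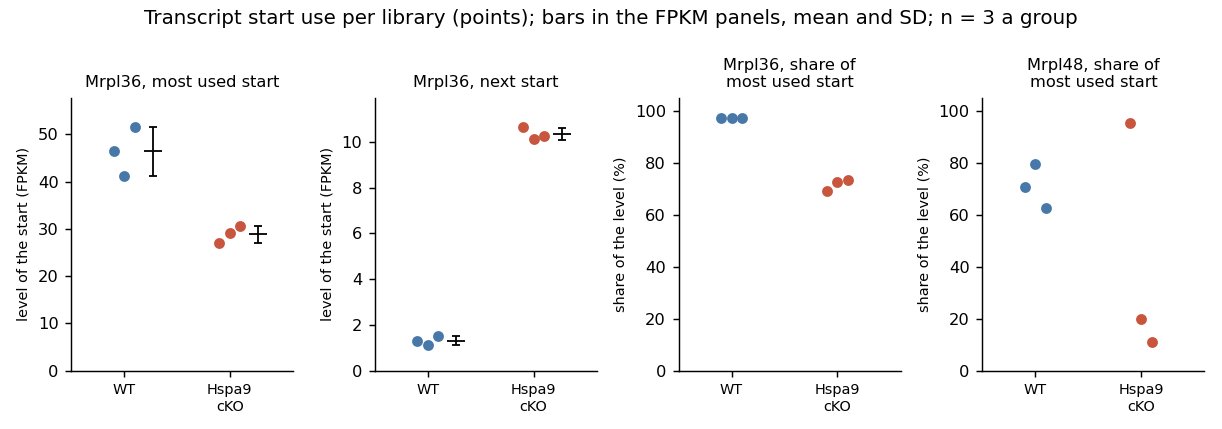
Level in FPKM of the most used and the next start of Mrpl36 in each library (points, with mean and SD of 3 libraries), and the share in percent of the level held by the most used start of Mrpl36 and Mrpl48 (points only). The next start of Mrpl36 is near 1 FPKM in WT and near 10 FPKM in Hspa9 cKO, and the share for Mrpl48 scatters from 10.9% to 95.4% within Hspa9 cKO.

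In Mrpl48 and Mrps17 the share of the most used start varied within groups. For Mrpl48 it was 70.8%, 79.7% and 62.5% in WT and 95.4%, 19.9998% and 10.9% in Hspa9 cKO, where replicate 1 stood apart. Mrps17 had 16.9%, 14.4% and 23.5% in WT and 9.94%, 87.1% and 17.9% in Hspa9 cKO, where replicate 2 stood apart. Its start was picked by a mean over the 6 libraries that includes this high value, and it held a minor share in the other libraries. Mrpl22 had 98.5%, 97.6% and 98.6% in WT and 94.6%, 91.2% and 84.4% in Hspa9 cKO, without overlap (adjusted p = 0.393). Levels from transcript ends were close to those from starts in most members: means lay within 10% of each other for 58 of the 66 tested members with both, and the sign of the log2 difference changed for 2, Mrpl38 (-0.18 from starts, 0.17 from ends) and Mrpl39 (-0.04 and 0.04).

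Splicing of the members could be compared at 45 pairs of events with the same flanks in 32 genes, with events assigned to genes by the exon edges they name. A percentage of inclusion or retention is the share of 1 event in the summed level of its pair, not in all transcripts of the gene. None was called (limma on the log2 ratio of inclusion to exclusion, with 0.227% of all 10573 pairs called). Of all 10573 pairs 1022 had an unadjusted p under 0.05, and of the 45 member pairs 3 did. Exon skipping in Mrps18b was among these: inclusion of a 67-base exon was 90.5%, 85.2% and 89.6% in WT and 95.9%, 97.4% and 98.6% in Hspa9 cKO, without overlap (adjusted p = 0.315). Skipping of a run of exons in the same gene was listed at 0.560, 0.837 and 0.896 FPKM in WT and not listed in Hspa9 cKO (adjusted p = 0.303), and with a pseudocount of 0.1 this pair was called (adjusted p = 0.0484; 0.511% of all pairs were called). The pairs with the largest log2 ratios included 2 that rested on few libraries. Retention of an intron of Mrps34 was 100% of its pair in every library but Hspa9 cKO replicate 3, at 27.9%. Inclusion of a 170-base exon of Mrpl10 was 82.7%, 87.9% and 100% in WT and 100% in each Hspa9 cKO library (adjusted p = 0.549).

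Many members start close to the start of a gene on the opposite strand. A protein-coding gene on the opposite strand started within 1000 bases of the start of 33 of the 78 members, or 42.3%. This held for 10.8% of all annotated protein-coding genes, which were not limited to the genes tested here. The sources used here do not say whether the authors' counting used strand, so reads from first exons that overlap such a partner cannot be told apart. Both genes were tested in 26 of these members, which had a median log2 difference of -0.15. Their partners had a median log2 difference of -0.05, with 15 below 0, 3 called lower and 0 called higher; over all genes tested, the median was 0.06, 43.3% were below 0, 5.61% were called lower and 8.4% higher. The 3 were Tcp1, a subunit of the cytosolic chaperonin and partner of Mrpl18 (-0.41, adjusted p = 0.0306), Psma2, a proteasome subunit and partner of Mrpl32 (-0.41, adjusted p = 0.0165), and Ska3, a kinetochore protein and partner of Mrpl57 (-0.49, adjusted p = 0.0298). Mrpl18 and Mrpl57 were below WT without overlap, and Mrpl32 was at 5.35, 5.35 and 6.89 FPKM in WT and at 6.76, 5.06 and 5.88 FPKM in Hspa9 cKO. Mrpl46 and Mrps11 are partners of each other, 412 bases apart, and both had all Hspa9 cKO libraries below WT (-0.17 and -0.52). Both are thus also counted among the partners, which are not separate from the members. Partners with a mitochondrial role included Ndufs6 of complex I beside Mrpl36 (-0.24, adjusted p = 0.0834), the mitochondrial DNA helicase Twnk beside Mrpl43 (0.06, adjusted p = 0.686) and the seryl-tRNA synthetase Sars2 beside Mrps12 (-0.06, adjusted p = 0.668).

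Other genes of mitochondrial translation are described next by their counts and medians, and differences between the lists were not tested. Over all genes tested, 5.61% were called lower and 8.4% higher, and the median log2 difference was 0.06. Of 5 mitoribosomal proteins without an Mrp symbol, Dap3, Ptcd3, Chchd1, Aurkaip1 and Gadd45gip1, the median log2 difference was -0.45 and 3 were below 0. Ptcd3 was at 12.3, 10.99 and 12.6 FPKM in WT and at 3.67, 8.65 and 3.10 FPKM in Hspa9 cKO, without overlap (-1.18, adjusted p = 0.0611). Aurkaip1, a small-subunit protein, was called higher from its starts, with 36.7, 32.9 and 31.4 FPKM in WT and 68.3, 62.4 and 61.5 FPKM in Hspa9 cKO (0.91, adjusted p = 0.00349). Its listed transcript end went the other way, with 26.2, 32.9 and 28.3 FPKM in WT and 6.004, 6.16 and 6.23 FPKM in Hspa9 cKO (-2.07, adjusted p = 0.000508), so no direction is given for the gene. The start that was higher was joined to a longer first exon, at 20.3, 13.8 and 23.9 FPKM in WT and 60.9, 54.8 and 54.2 FPKM in Hspa9 cKO.

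Of 25 tested genes for mitoribosome assembly and ribosomal RNA modification, 2 rose and 1 fell, with a median of 0.01. Ngrn, which acts on the large ribosomal RNA of mitochondria, rose from 15.1 ± 0.833 to 23.9 ± 0.785 FPKM (SD, n = 3; 0.63, adjusted p = 0.00630 by limma). Rpusd3, a pseudouridine synthase, rose from 1.33 ± 0.315 to 3.13 ± 0.790 FPKM (SD, n = 3; 0.82, adjusted p = 0.0368 by limma), a call lost without any 1 of the 6 libraries (adjusted p between 0.0627 and 0.0968). C1qbp, a matrix protein needed for mitochondrial translation, fell from 171.1 ± 9.64 to 123.8 ± 4.56 FPKM (SD, n = 3; -0.46, adjusted p = 0.0123 by limma); without Hspa9 cKO replicate 1 or 3 its adjusted p was 0.0510 and 0.0559.

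Of 19 translation factors 1 fell, the elongation factor Gfm1, from 23.4 ± 3.29 to 15.8 ± 0.704 FPKM (SD, n = 3; -0.54, adjusted p = 0.0312 by limma), and the list's median was 0.03. That call held without WT replicate 2 and was lost without any other single library (adjusted p between 0.0664 and 0.0978). Of 16 genes listed for mitochondrial aminoacyl-tRNA synthetases, Kars and Gars among them, 1 rose, and the median was 0.08. It was the histidyl enzyme Hars2, from 9.61 ± 0.187 to 17.1 ± 1.53 FPKM (SD, n = 3; 0.76, adjusted p = 0.00622 by limma). Kars and Gars, whose symbols lack the 2 of the others, had WT means of 77.2 and 56.5 FPKM. Of the lists kept for comparison, 64 genes taken by symbol as cytosolic ribosomal proteins had a median of -0.20. Called lower were 3, or 4.69%, and apart and lower were 26, or 40.6%. The 34 genes taken by symbol as nuclear-encoded complex I subunits had a median of -0.22, with 4, or 11.8%, called lower. Apart and lower were 16 of them, or 47.1%. Among the members these shares were 5.80% and 37.7%, and among all genes tested 5.61% and 15.7%. In neither comparison list was a gene called higher.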

How the data were processed

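Sorted DN3 thymocytes gave 6 RNA sequencing libraries, 3 WT and 3 Hspa9 cKO; titles gave their groups and numbers. Per the labels' protocols, ribosomal RNA was removed or poly(A) RNA selected (the step taken is not named), and cDNA was primed at random. The submitters' processing notes name cutadapt 1.9.1, a read trimmer, and the build mm10; the sources used here name no aligner, assembler, event caller or annotation and do not say whether strand was used.

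Each transcript-structure event has 1 deposited FPKM value, per the file headers (start, end, skipped exon, retained intron and others). An event without signal is absent from a table and was taken as 0, which may also stand for a failed estimate. The FPKM of an event depends on how reads were divided among isoforms. The tables hold no counts, so the depth behind a value is unknown, and neither counting intervals nor count tests were used. Per library, 87403 to 90970 distinct events were listed, and the summed FPKM of starts was 248014 to 272918.

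The level of a gene is its start events summed by the tables' own gene ID, or its end events where no start is listed; repeated event numbers were counted once. Gene types, transcript lengths and neighbours were taken from GENCODE M21, which is on the same build, and promoter windows from RefSeq (GRCm38.p6). The 9198 genes that reached 1 FPKM in 3 or more libraries were fitted with limma 3.58.1 under R 4.3.3 on log2(FPKM + 1), using its trend and robust options, two-sided, Benjamini-Hochberg adjusted over all genes tested, threshold 0.05. Fold differences on this scale understate those of low genes. Splicing and start ratios were fitted likewise with a pseudocount of 1. The fit was tested on simulated data for this comparison, in which 200 of 9198 genes were changed. It recovered 19.7% of simulated log2 changes of 0.5, 60.3% of those of 1 and 87.3% of those of 2. In the simulation 115 genes were called, against 1289 in the data, so recovery in the data may differ.

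Named are the members that passed the test, the 5 lowest and 5 highest of each subunit, the most and least expressed, those with groups apart, and called genes of the other lists; Mrpl36, the partner genes of members and the start events were chosen after their values were seen. The members and lists were chosen with earlier results of these data known. Alternatives were a replicate block, other filters, another pseudocount, 2 rescalings, levels from ends, events assigned by exon edge, removal of length and GC trends, subunits by place, and leaving out each library.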

Additional observations from a re-analysis of the deposited data

How the results depend on the processing

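The count of members called higher was 0 under all alternatives run, and the median log2 difference of all members stayed below 0, between -0.22 and -0.13. The count called lower, 4 in all 6 libraries, was 2 with length and GC trends removed, 0 with the replicate block and 0 to 2 without 1 library. It was 3 without a filter on low values. With a filter at 5 FPKM, and with either rescaling, it was 5, Mrps11 being added. Among all genes the count called lower was 516 of 9198 in all 6 libraries and 547 of 9194 with those trends removed. It was 84 of 9198 with the replicate block and between 202 and 323 without 1 library. Without a filter it was 460 of 12235, and with the filter at 5 FPKM 494 of 6816. Rescaling by trimmed means gave 635 of 9199, and by median ratios 671 of 9198. The titles do not say whether same-numbered libraries are paired. Their deviations from the group means correlated at 0.02, -0.02 and -0.02 across genes, and not every library correlated best with its own number. With 3 libraries a group these correlations cannot exclude a pairing. Under rescaling by median ratios the medians of all members and of the large subunit moved to -0.22 and -0.22, while the median of all genes moved from 0.06 to 0.01. Leaving out Mrpl53, chosen after the data were seen, changed no call. Start ratios gave 1 call, and 0 with the replicate block, 0 with a pseudocount of 0.1 and 0 to 1 without 1 library; splicing ratios gave 0 calls, and 1 with a pseudocount of 0.1. With the replicate block the adjusted p became 0.265 for the start ratio of Mrpl36, 0.0502 for Hars2, 0.0524 for Ngrn, 0.0702 for C1qbp, 0.0958 for Gfm1 and 0.107 for Rpusd3. Levels from transcript ends reversed Aurkaip1 (-2.07) and moved the medians of proteins without an Mrp symbol to 0.0040, of assembly genes to 0.096 and of the synthetases to -0.0079. A filter at 5 FPKM moved the assembly genes to -0.073 and the synthetases to -0.012. Trimmed means and median ratios moved the translation factors to -0.012 and -0.021. Without 1 library, medians ranged from -0.58 to -0.12 for proteins without an Mrp symbol, from -0.052 (without Hspa9 cKO replicate 1) to 0.090 for assembly genes, from 0.025 to 0.11 for translation factors and from -0.25 to -0.10 (without WT replicate 3) for cytosolic ribosomal proteins. The causes of these moves were not tested. Depth is unknown, so what it limits cannot be given.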

Other observations

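Of the 8 members not listed under their own ID, 5 had start or end events that match an exon edge of the gene in GENCODE M21 but carry the ID of another gene. Assigned by that edge, Mrps34, a small-subunit protein found only in mitochondrial ribosomes, was at 45.4, 48.2 and 54.9 FPKM in WT and at 41.6, 50.7 and 48.6 FPKM in Hspa9 cKO, with overlapping groups. Mrpl51 was at 11.8, 16.8 and 16.4 FPKM in WT and at 12.3, 11.8 and 16.8 FPKM in Hspa9 cKO. Mrps24 was at 12.7, 6.53 and 17.2 FPKM in WT and at 9.14, 6.04 and 7.28 FPKM in Hspa9 cKO.

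The groups of these 3 genes overlapped, as did those of the other two. Mrpl33 was at 5.92, 1.99 and 7.11 FPKM in WT and at 0.979, 2.14 and 2.94 FPKM in Hspa9 cKO, and Mrps10 was at 6.12, 2.62 and 3.28 FPKM in WT and at 2.23, 1.55 and 7.41 FPKM in Hspa9 cKO. With events assigned in this way 74 members were tested, 59 of them were below 0, and the 4 called were again Mrpl12, Mrpl34, Mrpl42 and Mrpl55. In that fit 514 of 9445 genes were called lower.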
